A study of Mus musculus with 38 samples.

Results

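Cytochrome P450 families 1 to 3 hold the enzymes that oxidise most drugs, together with many steroids, bile acids and fatty acids, and they were examined here in liver and whole brain of mice given the antipsychotic haloperidol. The members were all genes on the array whose symbol is Cyp followed by 1, 2 or 3 and a subfamily letter, read from probes that name a single gene, with the brighter probe kept where a gene had more than 1. This gave 55 genes on 56 probes, out of 18820 genes and 35556 probes in all. The largest subfamilies were Cyp2c with 13 genes, Cyp2d with 10, Cyp2j and Cyp3a with 6 each and Cyp2b with 5. The Cyp2a subfamily had 3 genes and Cyp1a had 2, and each of the other 10 subfamilies (Cyp1b, Cyp2ab, Cyp2e, Cyp2f, Cyp2g, Cyp2r, Cyp2s, Cyp2t, Cyp2u and Cyp2w) had 1. A further 6 genes, Cyp2a4, Cyp2c40, Cyp2c69, Cyp3a41a, Cyp3a41b and Cyp3a59, are named only on probes shared with their close copies and were not counted as members.

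All animals were C57BL/6J mice that carried pellets for 30 days, releasing either haloperidol or placebo. There were 10 haloperidol brains and 9 haloperidol livers, with 10 placebo brains and 9 placebo livers, each from a separate mouse within its tissue. Whole organs were pulverised and total RNA was hybridised to Affymetrix arrays, so each value averages all cells of the organ, and fewer cells of a type cannot be told apart from less RNA per cell. No label states the sex or age of the mice. The number of arrays sets the precision of these values.

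As background, P450 enzymes sit in the endoplasmic reticulum and take electrons from a reductase or from cytochrome b5. In liver, their transcription is set largely by 3 receptors that sense foreign compounds: AHR, which drives Cyp1 genes after planar aromatic compounds, CAR, which drives Cyp2b and some Cyp2c genes after phenobarbital, and PXR, which drives Cyp3a genes. Several mouse P450 genes also differ between the sexes, and many are highest in hepatocytes around the central vein. In humans, haloperidol itself is cleared in part by CYP3A4 and CYP2D6.

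In liver, no P450 gene passed the test between haloperidol and placebo. Of the 55 genes, 38 were bright enough to be tested, and 0 passed at an adjusted p of 0.05 in limma, against 0 of 12547 genes tested (0%). At an unadjusted p of 0.05, 6 of the 38 genes passed (15.8%), 3 higher and 3 lower with haloperidol, against 10.5% of all genes tested, 3.73% higher and 6.76% lower. The smallest adjusted p of any P450 gene was 0.411, and the Wilcoxon rank sum test also gave 0 genes. Log2 differences, haloperidol minus placebo, were positive for 16 genes and negative for 22, with a median of -0.020, beside -0.024 over all genes tested. The 95% confidence interval lay within 1 log2 unit of 0, that is within a fold of 2, for 36 of the 38 genes and within 0.5 log2 units for 27.

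**Figure D1:**
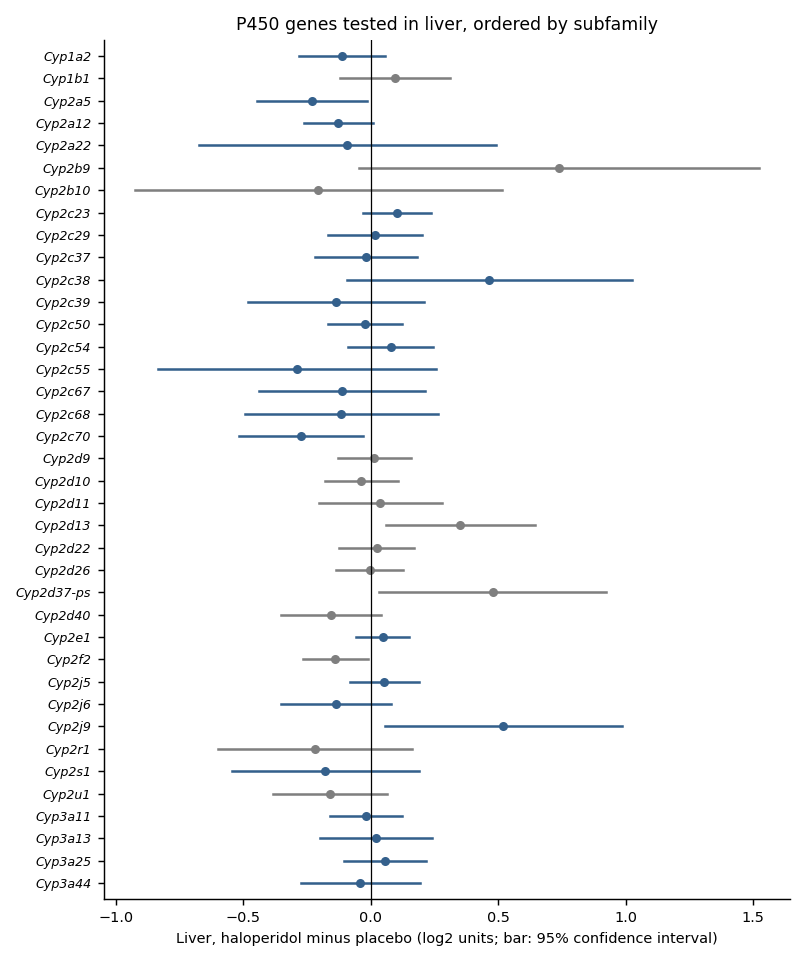
Log2 difference (horizontal axis, haloperidol minus placebo, 9 livers each) of the 38 P450 genes tested in liver, with points for the estimate, bars for the 95% confidence interval and shades alternating between subfamilies. Most intervals are narrow and cross 0; Cyp2b9 and Cyp2b10 have the widest, and before adjustment those of Cyp2d13, Cyp2d37-ps and Cyp2j9 lie to the right of 0 and those of Cyp2a5, Cyp2c70 and Cyp2f2 to the left.

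None of the AHR group passed. Cyp1a2, the liver enzyme that oxidises caffeine and aromatic amines, ran from 11.27 to 11.83 with a median of 11.66 in haloperidol livers, against 11.50 to 11.96 with a median of 11.72 in placebo livers. The groups overlapped, with 8 of 9 haloperidol livers below the placebo mean. The difference was -0.11 log2 units (SE 0.081, limma adjusted p = 0.615), -0.20 with array medians subtracted and -0.069 without haloperidol 1B. Cyp1a1, the classical AHR-induced enzyme, averaged 3.11 ± 0.287 in haloperidol livers and 3.403 ± 0.262 in placebo livers (SD, n = 9 each), too dim to be tested (below a liver mean of 3.92). Cyp1b1, an AHR target that acts mainly outside the liver, differed by 0.096 on its brighter probe (SE 0.103, limma adjusted p = 0.75), and by -0.11 on its other probe, which stayed below the background level defined later for olfactory receptors. Of the 3 AHR genes, 2 were tested, 1 with a positive and 1 with a negative difference.

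The CAR group held the genes with the widest spread between mice, and none of them passed. Cyp2b10, the gene by which CAR activation is usually read, ran from 5.16 to 8.11 with a median of 6.50 in haloperidol livers, against 5.93 to 8.05 with a median of 6.98 in placebo livers. The ranges covered each other almost fully, and the difference was -0.21 (SE 0.345, limma adjusted p = 0.86). It ran from -0.38 without haloperidol 4L to -0.014 without haloperidol 2N, and was -0.40 with array weights. Cyp2b9, a steroid hydroxylase that is higher in female mouse liver, ran from 3.66 to 7.68 with a median of 4.37 in haloperidol livers, against 3.52 to 4.31 with a median of 3.94 in placebo livers. Its 5 highest haloperidol livers stood above every placebo liver, and the liver tagged 2T, at 7.68, stood far above the rest. The difference was 0.74 (SE 0.377, limma adjusted p = 0.498) with all livers, 0.36 without haloperidol 2T and 0.48 with array weights. Cyp2a5, the mouse coumarin hydroxylase, ran from 10.38 to 11.13 with a median of 10.82 in haloperidol livers, against 10.82 to 11.44 with a median of 11.02 in placebo livers. Here 5 of 9 haloperidol livers lay below every placebo liver, and the difference was -0.23 (SE 0.104, unadjusted p = 0.0383, limma adjusted p = 0.452). A probe shared by Cyp2a5 and its close copy Cyp2a4 averaged 11.6 ± 0.296 in haloperidol livers and 11.8 ± 0.197 in placebo livers (SD, n = 9 each), a difference of -0.29. Of the 9 CAR genes, 8 were tested, 3 with a positive and 5 with a negative difference, with a median of -0.020 beside -0.024 over all genes.

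**Figure D2:**
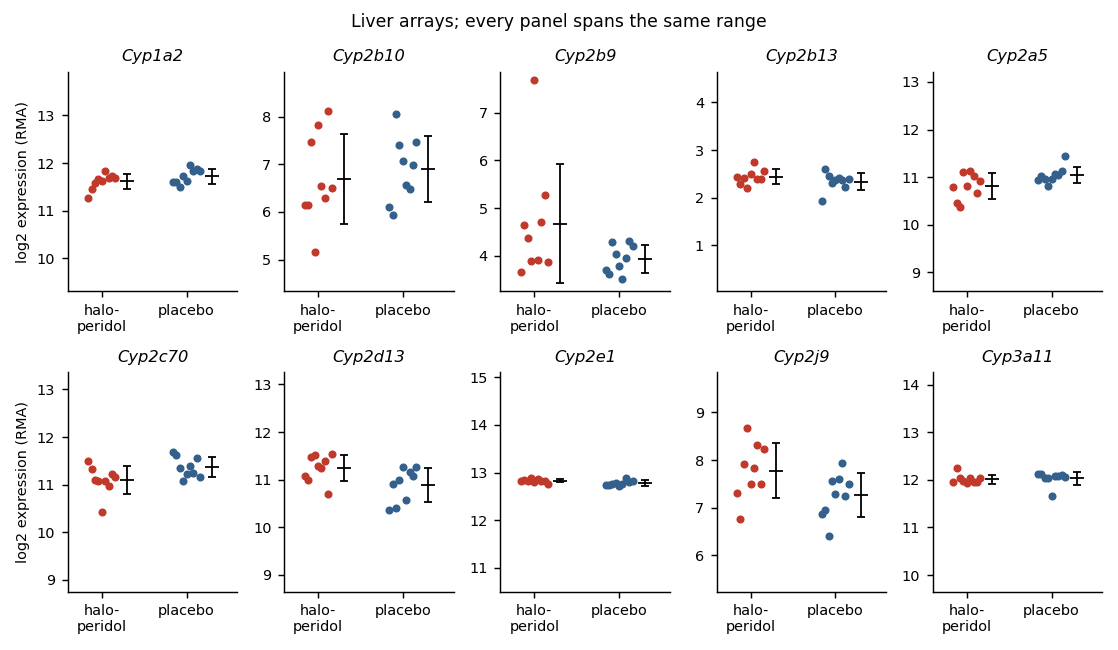
Log2 expression (vertical axis, RMA scale) of 10 P450 genes in the single livers, 9 haloperidol livers in red on the left and 9 placebo livers in blue on the right of each panel, with the mean and SD as black bars; all panels span the same range. Cyp2b10 and Cyp2b9 spread widely within groups, with 1 haloperidol liver at 7.68 for Cyp2b9, whereas Cyp2e1 and Cyp3a11 hardly vary.

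None of the PXR group passed. Cyp3a11, the mouse gene usually set beside human CYP3A4, ran from 11.93 to 12.24 with a median of 11.98 in haloperidol livers, against 11.67 to 12.12 with a median of 12.07 in placebo livers. The difference was -0.017 (SE 0.068, 95% interval -0.158 to 0.123, limma adjusted p = 0.947), so that a change beyond a fold of 1.09 up or 0.896 down lay outside the interval. Cyp3a13 differed by 0.020 (SE 0.106), Cyp3a25 by 0.056 (SE 0.077) and Cyp3a44, which is higher in female mouse liver, by -0.041 (SE 0.112), with limma adjusted p values of 0.959, 0.818 and 0.923. Cyp3a16, known from fetal and newborn liver, averaged 2.39 ± 0.27 in haloperidol livers and 2.44 ± 0.067 in placebo livers (SD, n = 9 each) and was too dim to test. Of the 7 PXR genes with a probe, 6 were tested, 2 with a positive and 4 with a negative difference, and the median was -0.029. These include Cyp2b10 and Cyp2c55, which were also counted in the CAR group and had negative differences. The 4 tested Cyp3a genes alone had 2 positive and 2 negative differences, with a median of 0.0013.

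The receptors and the other genes they control gave no call in liver either. Ahr differed by 0.026 (SE 0.090), its partner Arnt by 0.14 (SE 0.076) and Nr1i2, which encodes PXR, by 0.15 (SE 0.095), with limma adjusted p values of 0.94, 0.513 and 0.572. Nr1i3, which encodes CAR, and the reductase gene Por were not analysed here. Among 12 other CAR or PXR targets tested, Gadd45b, a stress-response gene, averaged 5.83 ± 0.527 in haloperidol livers and 5.16 ± 0.256 in placebo livers (SD, n = 9 each), a difference of 0.67 (limma adjusted p = 0.362). The glutathione transferase Gstm3 differed by -0.23 and the carboxylesterase Ces2a by -0.17, both also under an unadjusted p of 0.05 and not after adjustment. Of the 12 targets, 1 was higher and 2 were lower at that unadjusted p, against 3.73% higher and 6.76% lower of all genes tested. The only other AHR target bright enough to test in liver, the quinone reductase gene Nqo1, differed by -0.18 (limma adjusted p = 0.746).

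The remaining Cyp2 genes with an unadjusted p under 0.05 belonged to several subfamilies. Cyp2c70, which makes the muricholic acids particular to rodent bile, ran from 10.42 to 11.50 with a median of 11.11 in haloperidol livers, against 11.08 to 11.70 with a median of 11.34 in placebo livers. The groups overlapped, with 4 haloperidol livers below every placebo liver, and the difference was -0.27 (SE 0.118, limma adjusted p = 0.434). Cyp2f2, which oxidises naphthalene and is highest around the portal vein, ran from 12.39 to 12.68 with a median of 12.61 in haloperidol livers, against 12.56 to 12.85 with a median of 12.72 in placebo livers. All 9 haloperidol livers lay below the placebo mean, and the difference was -0.14 (SE 0.061, limma adjusted p = 0.443). Cyp2j9, a fatty acid epoxygenase, ran from 6.76 to 8.68 with a median of 7.82 in haloperidol livers, against 6.40 to 7.94 with a median of 7.29 in placebo livers. Here 3 haloperidol livers stood above every placebo liver, and the difference was 0.52 (SE 0.223, limma adjusted p = 0.434).

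Both Cyp2d members that RefSeq lists as transcribed pseudogenes were among these genes. Cyp2d13, a transcribed pseudogene in RefSeq, ran from 10.69 to 11.53 with a median of 11.29 in haloperidol livers, against 10.37 to 11.27 with a median of 10.9995 in placebo livers. The groups overlapped, with 5 haloperidol livers above every placebo liver, and the difference was 0.35 (SE 0.141, unadjusted p = 0.0208, limma adjusted p = 0.411). Cyp2d37-ps, the other transcribed pseudogene, averaged 10.8 ± 0.327 in haloperidol livers and 10.4 ± 0.63 in placebo livers (SD, n = 9 each), a difference of 0.48 (SE 0.213, limma adjusted p = 0.447). With the array median as a covariate the differences were 0.082 in Cyp2d13, 0.046 in Cyp2d37-ps and 0.20 in Cyp2j9 (limma adjusted p from 0.993 to 0.995), and with array medians subtracted that of Cyp2f2 was -0.22. Of the coding genes of the Cyp2d cluster, Cyp2d22, which is often set beside human CYP2D6, differed by 0.024 (SE 0.071, limma adjusted p = 0.927), and Cyp2d9, a testosterone hydroxylase, by 0.014 (SE 0.069, limma adjusted p = 0.957). Cyp2d40 differed by -0.16 (SE 0.094, limma adjusted p = 0.556), with 3 haloperidol livers below every placebo liver. How far probes of such close copies bind each other's transcripts was not tested.

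None of the P450 genes of the pericentral zone, around the central vein, passed. Cyp2e1, which oxidises ethanol and paracetamol, ran from 12.77 to 12.88 with a median of 12.82 in haloperidol livers, against 12.71 to 12.89 with a median of 12.77 in placebo livers. It had the smallest spread between mice of the 38 genes, a pooled SD of 0.045, and a difference of 0.047 (SE 0.049, limma adjusted p = 0.742). The arachidonic acid oxidases Cyp2c29 and Cyp2c37 differed by 0.018 and -0.018 (SE 0.089 and 0.097). Of the 8 pericentral P450 genes, all tested, 3 had a positive and 5 a negative difference, with a median of -0.017. Among 8 other pericentral genes, the ammonia transporter Rhbg averaged 6.98 ± 0.348 in haloperidol livers and 7.65 ± 0.181 in placebo livers (SD, n = 9 each), a difference of -0.67 (limma adjusted p = 0.251). Of these 8 genes, 2 had a positive and 6 a negative difference, with a median of -0.072. Of 6 periportal genes tested, 3 had a positive and 3 a negative difference, with a median of -0.033.

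The rest of the tested genes lay between these. Cyp2c38, an arachidonic acid epoxygenase, averaged 8.43 ± 0.67 in haloperidol livers and 7.97 ± 0.601 in placebo livers (SD, n = 9 each), a difference of 0.47 (limma adjusted p = 0.534). Cyp2c55, a fatty acid hydroxylase that CAR and PXR induce, differed by -0.29 (SE 0.262, limma adjusted p = 0.696), and Cyp2r1, a vitamin D 25-hydroxylase, by -0.22 (SE 0.182, limma adjusted p = 0.67). Without haloperidol 2T these differences were -0.16 in Cyp2c55 and -0.076 in Cyp2r1, without haloperidol 1R Cyp2c55 was -0.47, and with the array median as a covariate they were -0.0028 in Cyp2c55 and -0.10 in Cyp2r1. A further 14 tested genes, Cyp2a12, Cyp2a22, Cyp2c23, Cyp2c39, Cyp2c50, Cyp2c54, Cyp2c67, Cyp2c68, Cyp2d10, Cyp2d11, Cyp2d26, Cyp2j5, Cyp2j6 and Cyp2s1, together with the fatty acid hydroxylase Cyp2u1, differed by -0.18 to 0.10. The 17 genes left out as dim had group means from 1.86 to 3.86: Cyp1a1, Cyp2ab1, Cyp2b13, Cyp2b19, Cyp2b23, Cyp2c65, Cyp2c66, Cyp2d12, Cyp2d34, Cyp2g1, Cyp2j11, Cyp2j12, Cyp2j13, Cyp2t4, Cyp2w1, Cyp3a16 and Cyp3a57.

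Markers of the liver's cell types were read beside these values. All 8 Kupffer cell markers had negative differences. Of these, 5 had an unadjusted limma p under 0.05 and 0 passed after adjustment, where 6.76% of all genes tested were lower at the unadjusted threshold. Their median was -0.27, with a mean marker level per liver of 7.04 to 7.65 in haloperidol livers against 7.04 to 7.82 in placebo livers. Of the 8 hepatocyte markers, 7 had positive differences, and the 1 with a negative difference was the only 1 under an unadjusted p of 0.05. The hepatocyte markers had a median of 0.037 and a mean level per liver of 12.77 to 12.89 in haloperidol livers against 12.79 to 12.86 in placebo livers. Of 5 sinusoidal endothelium markers, 2 had positive and 3 negative differences, with 1 higher at an unadjusted limma p under 0.05. Stellate cell markers gave 4 positive and 1 negative difference. Cholangiocyte markers gave 2 of each sign, with 1 lower at that threshold. No marker in these lists passed after adjustment, and 3.73% of all genes tested were higher at the unadjusted threshold. The part of any of these markers in the P450 values was not tested. The median over all probes of an array averaged 4.89 ± 0.090 in haloperidol livers and 4.80 ± 0.082 in placebo livers (SD, n = 9 each).

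Spread between mice differed widely among the P450 genes. The pooled SD of the 38 genes ran from 0.045 to 0.903, with a median of 0.224 beside 0.221 over all genes tested, and 7 genes exceeded 0.5. Cyp2b9, Cyp2b10 and Cyp2a22 had the largest, at 0.903, 0.826 and 0.666. Across the 18 livers with group means removed, Cyp2b10 and Cyp2b9 varied together (Pearson r = 0.611, permutation p = 0.00878, adjusted over 9 pairs 0.0395; Spearman rho = 0.641, permutation p = 0.00552). Without the 2 livers farthest from the Cyp2b10 median r was 0.589; within groups it was 0.647 in haloperidol livers and 0.763 in placebo livers. Cyp2c29 and Cyp2c37 also varied together (r = 0.709, permutation p = 0.00053, adjusted 0.00477; rho = 0.659, permutation p = 0.00455), with r of 0.664 without the 2 farthest livers, 0.827 in haloperidol livers and 0.623 in placebo livers. Without haloperidol 2T, both pairs kept their Pearson call and lost their rank call: Cyp2b10 with Cyp2b9 had r = 0.661 (adjusted permutation p = 0.0332) and rho = 0.537 (adjusted permutation p = 0.143), and Cyp2c29 with Cyp2c37 had r = 0.686 (adjusted permutation p = 0.0161) and rho = 0.632 (adjusted permutation p = 0.0795). With array medians subtracted rho was 0.585 for Cyp2b10 with Cyp2b9 (adjusted permutation p = 0.0603). The other 7 of the 9 pairs did not pass, among them Cyp2b10 with Cyp3a11 (r = -0.269, adjusted permutation p = 0.608); Cyp1a1 and Cyp2b13, each in 1 of them, were below background. The Cyp2d pseudogenes, a pair chosen after its values were seen, had r = 0.911 and rho = 0.878.

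**Figure D3:**
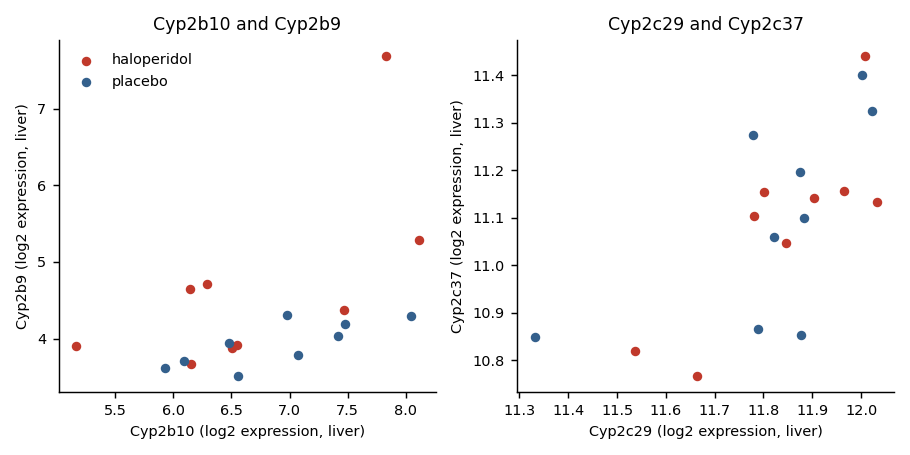
Log2 expression of Cyp2b9 against Cyp2b10 (left) and of Cyp2c37 against Cyp2c29 (right) in single livers, with 9 haloperidol livers in red and 9 placebo livers in blue. Both pairs vary together in both groups, and haloperidol 2T lies highest for Cyp2b9 at 7.68.

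Within the Cyp2b cluster on chromosome 7, Cyp2b9 and Cyp2b13 have nearly the same promoter, and only Cyp2b9 exceeded background in liver. In placebo livers it did so narrowly, with a mean of 3.93 against a limit of 3.77, and 6 of 9 livers were above. In haloperidol livers Cyp2b9 averaged 4.67 against a limit of 3.72, with 8 of 9 livers above. Cyp2b13, another steroid hydroxylase higher in females, averaged 2.44 ± 0.158 in haloperidol livers and 2.34 ± 0.182 in placebo livers (SD, n = 9 each), below background in every group; in no liver did it exceed background, so its correlation with Cyp2b9 cannot be read. The RefSeq promoter windows, 250 bases before to 50 after the annotated start on build GRCm38.p6, were identical at 298 of 300 positions in Cyp2b9 (chr7:26173159-26173458, plus strand) and Cyp2b13 (chr7:26061245-26061544, plus strand). Capitals mark the differing bases, T48C and C104T, with the Cyp2b9 base first and positions counted from 1 at the 5' end of the window.
Cyp2b9: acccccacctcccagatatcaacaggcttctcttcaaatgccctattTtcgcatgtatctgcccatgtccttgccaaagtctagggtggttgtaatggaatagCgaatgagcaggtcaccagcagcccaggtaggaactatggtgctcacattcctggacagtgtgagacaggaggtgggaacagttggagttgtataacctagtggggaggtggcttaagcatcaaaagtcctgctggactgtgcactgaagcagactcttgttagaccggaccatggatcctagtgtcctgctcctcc
Cyp2b13: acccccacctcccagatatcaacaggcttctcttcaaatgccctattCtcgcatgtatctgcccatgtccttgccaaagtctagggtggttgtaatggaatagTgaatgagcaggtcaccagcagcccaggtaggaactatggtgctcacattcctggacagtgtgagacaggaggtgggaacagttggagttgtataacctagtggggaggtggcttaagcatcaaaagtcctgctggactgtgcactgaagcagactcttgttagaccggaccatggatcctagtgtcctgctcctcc
Positions were compared letter by letter without alignment, so the lower counts of the other pairs give no order of similarity. The array annotation gives Cyp2b9 and Cyp2b13 a probe each, and no source used here states how the probes differ in sensitivity.

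The promoter windows of the family were rich in the TATA box motif. RefSeq windows were at hand for 46 of the 55 genes. The letters TATAAA, read on both strands, occurred in 22 of the 46 windows (47.8%), against 14.1% of 27025 promoters of the same length, and on the sense strand 20 to 40 bases before the start in 9 of them (19.6%), against 2.09%. Windows of a gene from each of the Cyp1a, Cyp2a and Cyp2e subfamilies are shown because their TATAAA, in capitals, begins 29 bases before the start in Cyp1a2 (chr9:57683606-57683905, minus strand) and Cyp2a5 (chr7:26835089-26835388, plus strand) and 31 bases before it in Cyp2e1 (chr7:140763569-140763868, plus strand).
Cyp1a2: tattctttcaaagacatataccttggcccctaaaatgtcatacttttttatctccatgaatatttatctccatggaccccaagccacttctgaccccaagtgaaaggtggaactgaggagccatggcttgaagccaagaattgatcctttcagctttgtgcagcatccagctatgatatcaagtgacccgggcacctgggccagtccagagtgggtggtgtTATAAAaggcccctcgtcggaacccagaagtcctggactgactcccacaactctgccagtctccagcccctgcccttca
Cyp2a5: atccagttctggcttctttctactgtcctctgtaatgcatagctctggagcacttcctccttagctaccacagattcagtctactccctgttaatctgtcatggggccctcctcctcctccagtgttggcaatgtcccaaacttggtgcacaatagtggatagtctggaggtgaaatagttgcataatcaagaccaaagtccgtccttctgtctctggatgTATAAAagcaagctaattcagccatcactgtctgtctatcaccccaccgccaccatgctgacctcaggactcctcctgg
Cyp2e1: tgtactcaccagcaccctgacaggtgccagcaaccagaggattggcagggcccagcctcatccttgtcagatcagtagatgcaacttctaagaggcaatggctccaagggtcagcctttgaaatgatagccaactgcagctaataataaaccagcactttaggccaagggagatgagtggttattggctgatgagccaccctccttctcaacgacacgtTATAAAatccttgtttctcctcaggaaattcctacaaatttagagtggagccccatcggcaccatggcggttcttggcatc
The nuclear receptor core motif AGGTCA, on either strand, occurred in 16 of the 46 windows (34.8%), against 16.2% of all promoters. GCGTG, the core of the AHR response element, on either strand, occurred in 10 of them (21.7%), against 32.2% of all promoters. These matches describe letters in short windows only.

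In brain, 16 of the 55 genes stood above an empirical background in both treatment groups. The background was the 95th percentile of the group means of 1155 olfactory and vomeronasal receptor genes on the same arrays, at 4.601 in haloperidol brains and 4.590 in placebo brains, a level that 58 receptor genes exceeded in each group. The 16 genes were Cyp1b1, Cyp2b23, Cyp2c37, Cyp2d10, Cyp2d22, Cyp2d26, Cyp2d37-ps, Cyp2d40, Cyp2f2, Cyp2j6, Cyp2j9, Cyp2j12, Cyp2r1, Cyp2s1, Cyp2u1 and Cyp3a13. Cyp2w1 was above it in the placebo group only and Cyp3a25 in the haloperidol group only, through 1 brain described next (mean 4.60 in 10 haloperidol brains and 4.37 in the other 9), and 37 genes were above it in neither. With the 99th percentile of the receptors 10 genes remained: Cyp1b1, Cyp2c37, Cyp2d22, Cyp2d40, Cyp2f2, Cyp2j6, Cyp2j9, Cyp2j12, Cyp2s1 and Cyp2u1. In liver, 39 of the 55 genes exceeded the same kind of limit in both groups. The share of all genes above these backgrounds was not counted. The dimness limits of the fits, 5.52 in brain and 3.92 in liver, are higher than these backgrounds. In each tissue 12547 of all 18820 genes passed them, because 33.3% were left out by design. Of the 55 P450 genes, 8 passed that limit in brain and 38 in liver. Probes differ in brightness, so these counts do not order genes by expression.

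Of the main liver genes, most were at background in brain. Cyp1a2, Cyp2a5, Cyp2c29, Cyp2e1 and Cyp3a11 had placebo brain means between 2.57 and 3.93. The exception was 1 haloperidol brain, tagged 4T, which held liver transcripts: albumin (Alb) was 11.1 there, against 3.93 to 4.51 in the other 19 brains. All 8 hepatocyte markers were highest in it, but Ttr only barely, at 12.422 against 10.990 to 12.419 in the other brains. In that brain Cyp2e1 was 8.37, against 3.53 to 4.42 in the other brains, and Cyp3a25 was 6.69, against 3.70 to 4.85. In all, 19 of the 55 genes were highest in haloperidol 4T, and 8 exceeded every other brain there by over 1 log2 unit: Cyp1a2, Cyp2c23, Cyp2c29, Cyp2d26, Cyp2e1, Cyp2f2, Cyp3a11 and Cyp3a25. Without this brain 15 genes stood above background in both groups, with Cyp3a13 no longer among them, and the haloperidol mean of Cyp3a25 was below it as well.

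**Figure D4:**
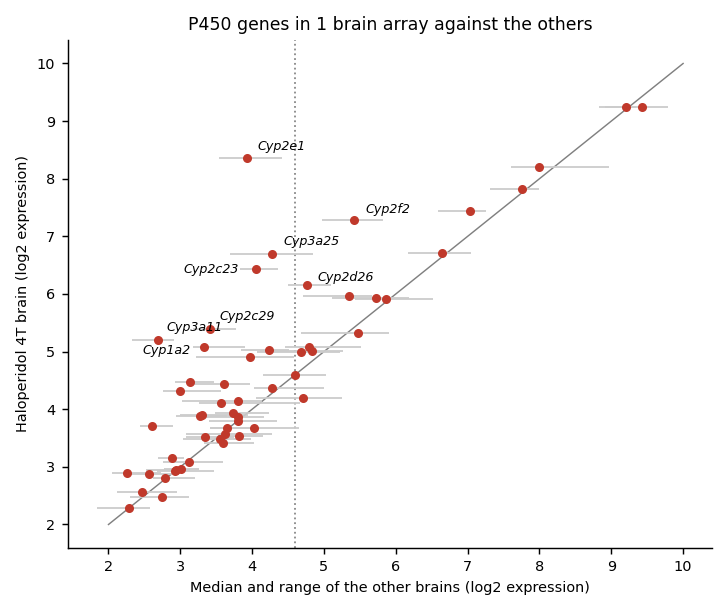
Log2 expression of the 55 P450 genes in the haloperidol 4T brain (vertical axis) against the median of the other 19 brains (horizontal axis), with grey bars for the range of the other brains, a grey line where both are equal and a dotted line at the background level of 4.59 in placebo brains. The 8 named genes lie over 1 log2 unit above every other brain, led by Cyp2e1 at 8.37.

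Only 8 of the 55 genes were bright enough in brain to be tested, and 3 of them passed: Cyp2j6 and Cyp2j12 rose and Cyp2u1 fell with haloperidol. This was 37.5% of the 8, against 30.4% of all 12547 genes tested, 15.2% in each direction. Cyp2j6, which oxidises arachidonic and linoleic acid, ran from 7.69 to 8.97 with a median of 8.31 in haloperidol brains, against 7.60 to 8.07 with a median of 7.94 in placebo brains. In it 7 of 10 haloperidol brains stood above every placebo brain, and the difference was 0.42 (SE 0.118, fold 1.34, limma adjusted p = 0.0126). Cyp2u1, which hydroxylates long-chain fatty acids, ran from 7.31 to 7.84 with a median of 7.48 in haloperidol brains, against 7.63 to 7.9997 with a median of 7.81 in placebo brains. Here 6 of 10 haloperidol brains lay below every placebo brain, and the difference was -0.27 (SE 0.070, fold 0.829, limma adjusted p = 0.00804). Cyp2j12, a neighbour of Cyp2j6 in the Cyp2j cluster on chromosome 4, ran from 6.46 to 7.05 with a median of 6.76 in haloperidol brains, against 6.16 to 6.88 with a median of 6.57 in placebo brains. The ranges overlapped, with 3 haloperidol brains above every placebo brain, and the difference was 0.25 (SE 0.092, fold 1.19, limma adjusted p = 0.0473).

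Whether these brain genes were called depended on how the arrays' overall level was handled. The median over all probes of an array averaged 6.19 ± 0.072 in haloperidol brains and 6.33 ± 0.044 in placebo brains (SD, n = 10 each). It ran from 6.08 to 6.33 in haloperidol brains and from 6.27 to 6.40 in placebo brains. Because it differed so much between the groups, a fit with it as a covariate cannot well separate treatment from overall level. With that median as a covariate 0 P450 genes and 0 of all genes passed in limma, with a difference of -0.015 in Cyp2j6, -0.030 in Cyp2j12 and -0.24 in Cyp2u1 (adjusted p from 0.919 to 0.989). With the median subtracted, which shifted the median of all genes to 0.12, Cyp2j6 (0.55) and Cyp2j12 (0.38) passed and Cyp2u1 (-0.14, limma adjusted p = 0.154) did not. Cyp2j6 and Cyp2u1 still passed with any single brain left out. Cyp2j12 lost its call in 13 of these 20 fits (limma adjusted p from 0.050 to 0.092): without haloperidol 1B, 2L, 2N, 3B, 3R or 4N, or without placebo 1L, 1N, 2B, 2R, 3L, 3N or 4B. It also lost its call with array weights (limma adjusted p = 0.131), in the Wilcoxon rank sum test (adjusted p = 0.0977), with no genes left out (0.066), with an intensity trend and robust variances (0.051), in the fit of all 38 arrays (0.0726) and without haloperidol 4N, haloperidol 4T and placebo 1L together (0.14). Within each of the 4 groups of mice whose tags share a first digit, Cyp2j6 (0.26 to 0.67) and Cyp2j12 (0.17 to 0.39) were higher and Cyp2u1 (-0.49 to -0.098) lower in haloperidol brains.

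**Figure D5:**
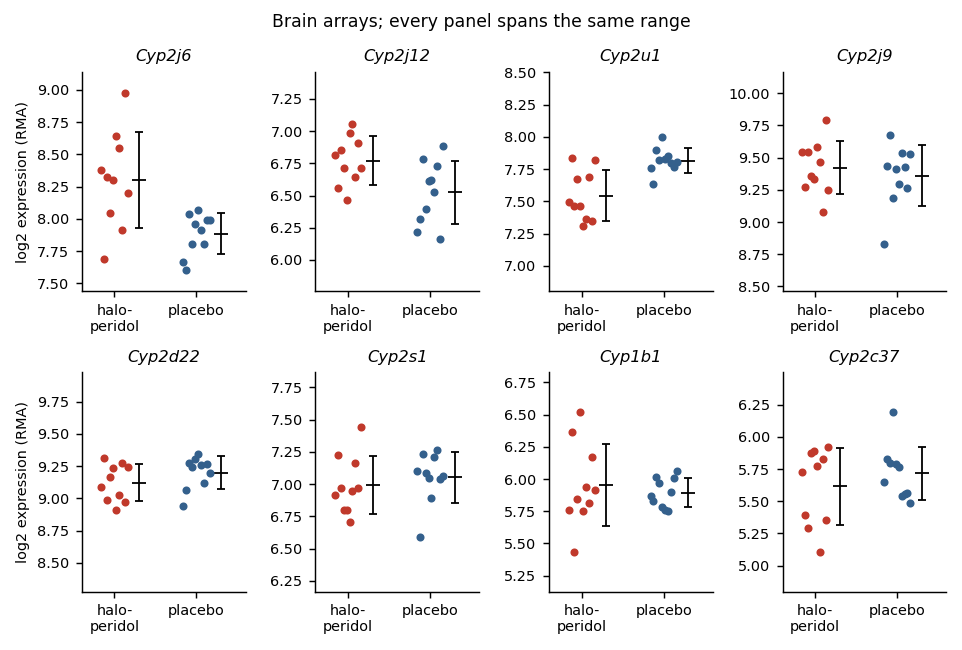
Log2 expression (vertical axis, RMA scale) of the 8 P450 genes tested in brain, 10 haloperidol brains in red on the left and 10 placebo brains in blue on the right of each panel, with the mean and SD as black bars; all panels span the same range. Cyp2j6 is higher and Cyp2u1 lower in haloperidol brains, Cyp2j12 overlaps more; in the other 5 genes the ranges overlap, with 4 haloperidol brains below every placebo brain in Cyp2c37.

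The other 5 brain genes did not pass. Cyp2j9, the other Cyp2j gene seen in brain, averaged 9.42 ± 0.206 in haloperidol brains and 9.36 ± 0.234 in placebo brains (SD, n = 10 each), a difference of 0.061 (limma adjusted p = 0.634). Cyp2d22 averaged 9.12 ± 0.143 in haloperidol brains and 9.20 ± 0.125 in placebo brains (SD, n = 10 each), a difference of -0.078 (95% interval -0.208 to 0.052, limma adjusted p = 0.347). Cyp1b1 differed by 0.057, Cyp2s1, a retinoid-oxidising enzyme found outside the liver, by -0.058, and Cyp2c37 by -0.099, with limma adjusted p values of 0.682, 0.638 and 0.488. The other 8 genes above background had brain means below 5.52, the limit for testing, and were not tested. Haloperidol minus placebo, their means differed by 0.17 in Cyp2d26, 0.097 in Cyp2d10, 0.051 in Cyp2f2 and 0.034 in Cyp2r1. The others differed by -0.013 in Cyp2d37-ps, -0.10 in Cyp2b23, -0.11 in Cyp3a13 and -0.16 in Cyp2d40. In Cyp2d40, 9 of 10 haloperidol brains lay below the placebo mean. These means include the haloperidol 4T brain, where Cyp2d26 and Cyp2f2 stood above every other brain. Without it the haloperidol means were 4.78 in Cyp2d26 and 5.34 in Cyp2f2, against placebo means of 4.75 and 5.48.

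Partners of the P450 enzymes were read in brain too, where 30.4% of all genes passed and none did with the array median as a covariate. The electron donors Cyb5a (0.26, limma adjusted p = 0.00934) and Cyb5r3 (0.30, limma adjusted p = 0.00586) rose, and Arnt, the partner of AHR, fell (-0.45, limma adjusted p = 0.00444). Ahr itself differed by -0.10 (limma adjusted p = 0.289). Nqo1, a quinone reductase and AHR target, averaged 6.82 ± 0.47 in haloperidol brains and 6.17 ± 0.322 in placebo brains (SD, n = 10 each) and rose by 0.65 (limma adjusted p = 0.00706). Of the 12 receptor and partner genes, 6 were tested, of which 2 rose and 1 fell; of 8 other CAR or PXR targets tested, 0 passed in limma and 3 had an unadjusted p under 0.05, as did 44% of all genes in brain. Among cell type markers, the mural cell gene Rgs5 rose by 0.63, 1 of 4 such markers called (30.4% of all genes). Of the 5 macrophage markers tested, C1qa and C1qb, which mark microglia in brain, rose by 0.30 and 0.35, while Adgre1 (0.22), Cd68 (0.080) and Csf1r (-0.014) did not pass. Dcn, 1 of 4 meninges markers, rose by 0.37 (limma adjusted p = 0.0118). No marker of neurons, astrocytes, oligodendrocytes, brain endothelium or choroid plexus passed. Of the 4 neuron markers, Syt1 (-0.17) and Rbfox3 (-0.16) were lower at an unadjusted limma p under 0.05. The mean level of the 4 mural markers ran from 8.004 to 9.07 in haloperidol brains and from 7.79 to 8.48 in placebo brains. The part of any of these cell type markers in the P450 values was not tested.

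The effect of haloperidol differed between tissues for Cyp2j6 alone among the 7 genes bright enough in both. The liver difference minus the brain difference was -0.55 (SE 0.161, limma adjusted p = 0.0133) for Cyp2j6, which differed by -0.14 in liver and by 0.42 in brain. Over all genes, 23% of 10869 passed this test. It was not fitted with the array median as a covariate, under which the brain difference of Cyp2j6 was -0.015. Cyp2j9, with 0.52 in liver and 0.061 in brain, gave 0.46 (SE 0.241, limma adjusted p = 0.163). Cyp1b1, Cyp2c37, Cyp2d22, Cyp2s1 and Cyp2u1 gave differences from -0.12 to 0.11 and did not pass. With array medians subtracted Cyp2j9 gave 0.24 and Cyp2s1 -0.34, neither called, and without the haloperidol 4T brain Cyp2s1 gave -0.069.

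The promoter windows of the genes seen in brain were read for the same motifs. TATAAA occurred in 3 of the 13 windows at hand for genes above brain background, Cyp2d10, Cyp2d26 and Cyp2d40, and in 19 of the other 33 windows. AGGTCA occurred in 3 of the 13, Cyp2b23, Cyp2d40 and Cyp2f2, and in 13 of the other 33. GCGTG went the other way, with 4 of the 13, Cyp1b1, Cyp2j9, Cyp2j12 and Cyp2r1, and 6 of the other 33. Of the brighter genes tested in brain, TATAAA occurred in 0 of the 6 windows at hand and in 22 of the other 40, and AGGTCA in 0 of the 6 and 16 of the 40. GCGTG occurred in 3 of the 6, Cyp1b1, Cyp2j9 and Cyp2j12, and in 7 of the 40, beside 32.2% of all promoters. CpG dinucleotides, the sites of DNA methylation, had a median of 5 and a range of 1 to 17 in the 6 windows, against a median of 2 in the other 40 and of 7 over all promoters. Windows of Cyp2j6, which has the larger of the 2 higher calls, and of the most CpG-rich genes tested in brain are shown, with each CG in capitals: Cyp2j6 (chr4:96553602-96553901, minus strand) holds 4, Cyp2s1 (chr7:25816476-25816775, minus strand) 17 and Cyp1b1 (chr17:79715012-79715311, minus strand) 16.
Cyp2j6: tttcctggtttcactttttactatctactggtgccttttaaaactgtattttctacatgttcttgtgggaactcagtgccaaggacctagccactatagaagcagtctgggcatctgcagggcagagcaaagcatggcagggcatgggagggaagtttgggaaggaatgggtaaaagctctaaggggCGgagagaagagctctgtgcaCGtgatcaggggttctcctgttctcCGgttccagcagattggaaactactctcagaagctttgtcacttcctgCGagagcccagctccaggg
Cyp2s1: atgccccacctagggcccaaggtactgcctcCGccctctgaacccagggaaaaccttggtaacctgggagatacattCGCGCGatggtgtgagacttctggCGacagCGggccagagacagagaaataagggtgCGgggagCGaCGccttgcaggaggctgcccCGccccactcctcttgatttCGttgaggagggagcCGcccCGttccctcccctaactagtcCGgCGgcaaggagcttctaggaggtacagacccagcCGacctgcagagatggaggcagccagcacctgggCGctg
Cyp1b1: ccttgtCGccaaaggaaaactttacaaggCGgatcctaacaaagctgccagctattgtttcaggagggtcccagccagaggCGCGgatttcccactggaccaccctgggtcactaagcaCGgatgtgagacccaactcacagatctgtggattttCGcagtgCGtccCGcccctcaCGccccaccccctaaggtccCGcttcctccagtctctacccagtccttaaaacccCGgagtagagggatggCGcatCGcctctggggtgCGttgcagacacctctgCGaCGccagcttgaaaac
Cyp2r1, above background in brain but not tested there, had 22, the most of the 46 windows. With 6 windows, these counts are a description only.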

How the data were processed

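Values are those the authors deposited as 1 normalized table: RMA values (Affymetrix Expression Console is named in the submitters' processing notes), taken here as log2 because RMA gives that scale. No source used here names a version or the array model. The tissues appear to have been normalized apart, so levels were compared only within a tissue. Genes were named from the platform annotation: 21218 probes named 1 gene, 1881 several and 12457 none. Per gene the probe with the highest mean was kept.

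Each tissue was fitted in limma 3.58.1 (R 4.3.3) on all genes except the 33.3% with the lowest mean (below 3.92 in liver and 5.52 in brain), with Benjamini-Hochberg adjustment over 12547 genes, two-sided, and a threshold of 0.05. The tissue difference used all 38 arrays. Standard errors are limma's moderated ones. Correlations used 100000 two-sided permutations within groups, for Pearson and Spearman (scipy 1.17.1). Fits were tested on simulated data. Alternatives were other filters, array-median scaling, blocks, weights, the Wilcoxon test and arrays left out.

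In liver, genes named in the text were those with an unadjusted p under 0.05, the largest difference per subfamily, the 3 widest spreads and a fixed list; in brain, those called or above background. Genes in counts of 5 or fewer and lists of the remainder are named besides. The members and gene lists were chosen with earlier results of these data known. Promoters are from RefSeq (GRCm38.p6), where all 55 genes matched by symbol; 46 have a window.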

Additional observations from a re-analysis of the deposited data

Results flagged for a closer look

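An array standing apart from the rest of its group was looked for in both treatment groups of the 23 genes named in liver and the 8 in brain. This made 62 groups of 9 or 10 arrays, and 7 such arrays were found. A chance rate of about 1 in 20 need not hold here. Some of these genes were named for a wide spread or a large difference in the same values, and the genes share arrays. In liver, haloperidol 2T held 3 of them. It had the highest Cyp2b9 at 7.68, with the other 8 haloperidol livers between 3.66 and 5.28, the lowest Cyp2c70 at 10.42, with the others between 10.97 and 11.50, and the lowest Cyp2r1 at 6.21, with the others between 7.04 and 7.84. The liver placebo 3L had the lowest Cyp2c29 of its group at 11.33 (others 11.78 to 12.02) and the lowest Cyp3a11 at 11.67 (others 12.03 to 12.12). Haloperidol 1R had the highest Cyp3a11 of its group at 12.24 (others 11.93 to 12.04). In brain, placebo 2B had the highest Cyp2c37 at 6.19, with the other placebo brains between 5.48 and 5.83.

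Cyp2j6 had a liver difference minus brain difference of -0.55 log2 units (limma adjusted p = 0.0133), with -0.14 in liver and 0.42 in brain. Of all 10869 genes tested this way, 23% passed. With the array median as a covariate the brain difference was -0.015, and the contrast between tissues was not fitted with that covariate.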

How the results depend on the processing

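In liver 0 P450 genes passed under every alternative run, and the smallest adjusted p over the fits leaving out 1 liver was 0.201. The median liver difference was -0.11 with array medians subtracted (all genes -0.11) and ran from -0.055 to 0.0039 leaving out 1 liver. In brain the count was 0 with the array median as a covariate and 2 or 3 under the other alternatives, also leaving out 1 brain; the median difference was 0.14 with array medians subtracted (all genes 0.12) and ran from -0.032 to 0.071. The count above brain background was 10 at the 99th percentile of the receptors and 8 at the dimness limit of the brain fit. Animal tags recur across tissues, but values of the 18 shared tags did not deviate together (r from -0.318 to 0.249, above 0.1 for 5); with the tag as a replicate block 1 gene differed between tissues, Cyp2j6, as without it.

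Some differences changed sign, none of them past the threshold under the alternative, among them the brain calls of Cyp2j6 and Cyp2j12 (0.42 and 0.25 as reported) with the array median as a covariate; the others were not called, and the cause was not tested. With array medians subtracted these were, in liver, Cyp2c29 -0.069, Cyp2d22 -0.062, Cyp2d9 -0.073, Cyp2e1 -0.039, Cyp3a13 -0.067 and Cyp3a25 -0.031, in brain, Cyp2c37 0.036, Cyp2d22 0.058 and Cyp2s1 0.078, and in liver minus brain, Cyp2d22 -0.12, Cyp2u1 -0.11, Cyp2c37 -0.14 and Cyp1b1 -0.18. With the array median as a covariate they were, in liver, Cyp2c37 0.067, Cyp2d22 -0.047, Cyp2d9 -0.042, Cyp3a11 0.024, Cyp3a25 -0.042 and Cyp3a44 0.12, and in brain, Cyp2j12 -0.030, Cyp2j6 -0.015 and Cyp2j9 -0.18. With the tag digit as a block they were Cyp2c37 0.024, Cyp2d22 -0.014 and Cyp2d9 -0.031 in liver, and without the brains haloperidol 4N, haloperidol 4T and placebo 1L it was Cyp2j9 -0.022 in brain. Leaving out 1 array, liver differences ran from -0.26 to 0.040 for Cyp2a22, -0.044 to 0.055 for Cyp2c29, -0.062 to 0.022 for Cyp2c37, -0.0036 to 0.049 for Cyp2d22, -0.012 to 0.045 for Cyp2d9, -0.039 to 0.076 for Cyp3a13 and -0.11 to 0.013 for Cyp3a44, and brain differences from -0.0057 to 0.11 for Cyp1b1.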

Other observations

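Probes that name several P450 genes were outside all tests. In liver, the probe of Cyp2c40, Cyp2c67, Cyp2c68 and Cyp2c69 averaged 10.6 ± 0.361 in haloperidol livers and 10.7 ± 0.358 in placebo livers (SD, n = 9 each). The probes naming Cyp3a11, Cyp3a41a, Cyp3a41b and Cyp3a44 differed by -0.024 and -0.028, and the probe naming Cyp3a25, Cyp3a57 and Cyp3a59 by 0.058.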
